A study of Drosophila melanogaster with 3 samples.

Results

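The RNA of *RasV12; scrib-/-* tumor cells was compared with that of control eye disc cells, gene by gene, across all 15603 genes of the deposited expression table. The members are all of these genes, in the tumor GFP+ column and the control GFP+ column, and the account below goes past the Toll pathway and the known tumor genes to transcription factors, transporters, secreted proteins and metabolic enzymes. Of the 15603 genes, 13714 are annotated as protein-coding, and 9166 of these averaged at least 1 FPKM over the tumor and control libraries and were compared. FPKM values are fragments scaled to transcript length and to library depth, so that levels can be set side by side between genes.

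The tumor cells carried GFP and came from eye-antennal discs of y,w larvae with ey-flp, in which recombination at Frt82B left clones homozygous for scrib2, without tubGal80, and with UAS-RasV12 and UAS-GFP driven through Act>y+>Gal4. The GFP- cells of the same discs, called the tumor microenvironment (TME), have that background genotype outside the labeled clones, and their values are given as a further reference. The control cells are labelled as GFP+ cells of GMRGFP discs, where GMR drives expression behind the morphogenetic furrow and not in the whole disc. The control therefore differs from the tumor in genotype, in driver and in the part of the disc that is labeled. The design text gives sorting by FACS, whereas the methods describe discs isolated by hand and name no sort. Each library came from 50 pooled discs of wandering larvae at Day 6, with no treatment, all in batch 1, and there was 1 library for each of the 3 groups. No difference below has a replicate check, and no p-value was computed.

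Loss of *scrib*, which encodes a scaffold of the basolateral membrane, removes apical-basal polarity from disc epithelial cells, and activated Ras lets such cells survive and grow into invasive masses in place of differentiating. In *Drosophila* these tumors are known for JNK signaling, for secreted cytokines and hormones that act on other organs, and for a delay of metamorphosis. Growing disc cells also depend on amino acid uptake, nucleotide synthesis and mitochondrial respiration, while the apical surface of the disc is covered by a matrix of chitin and zona pellucida domain proteins.

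The files give no counts, so the number of fragments behind each value was estimated from the steps between low FPKM values, which gave about 1800433 fragments for tumor cells, 10913791 for the TME and 1743731 for control cells. A 2000 nt transcript at 5 FPKM then rests on about 16.7 tumor fragments or 16.3 control fragments. Intervals in brackets after a fold are exact 95% counting intervals from these estimated fragments; they cover counting error only, and not the spread between animals or dissections. A gene was called when it was above 5 FPKM in the higher library and at least 2-fold different, or listed at 0 in the other library. No fold is given against a value of 0, which can be a failed estimate.

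The labels were first set against the genes they name. *Ras85D*, which the UAS-RasV12 transgene can add to, was at 327 FPKM in tumor cells, 118 FPKM in the TME and 138 FPKM in control cells, 2.36-fold higher in tumor than in control (2.11 to 2.64). *scrib* was at 51.0 FPKM in tumor cells, 44.6 FPKM in the TME and 36.2 FPKM in control cells and was not called, and whether the scrib2 allele lowers its RNA cannot be read from these values. The pigment gene *y*, for which the tumor stock is mutant and carries a rescuing cassette, was at 3.46 FPKM in tumor cells, 12.1 FPKM in the TME and 58.8 FPKM in control cells. *w*, for which that stock is also mutant, was at 151 FPKM in tumor cells, 54.2 FPKM in the TME and 65.5 FPKM in control cells, and RNA of the mutant allele cannot be told apart from that of a transgene marker.

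Genes of retinal cells behind the furrow did not set the control library apart. *gl*, a zinc finger factor of differentiating retinal cells, was at 16.1 FPKM in tumor cells, 29.6 FPKM in the TME and 11.6 FPKM in control cells. *chp*, which encodes the photoreceptor surface protein chaoptin, had 1.51 FPKM in tumor cells, 1.81 FPKM in the TME and 1.92 FPKM in control cells, and *sev*, a receptor kinase of photoreceptor specification, had 3.60, 7.21 and 3.88 FPKM in that order. Of 16 tested retinal markers, 2 were higher in tumor, 3 were lower and 11 were not called. Among those lower in tumor were *elav* and *pros*, which neurons and their precursors elsewhere also express.

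Markers of other cell types did set the control apart. Of 16 neuronal markers, 12 were lower in tumor and none was higher, and their summed level was 75.4 FPKM in tumor cells, 78.0 FPKM in the TME and 453 FPKM in control cells. Of 14 hemocyte markers, 12 were lower in tumor and none was higher, and they summed to 63.0 FPKM in tumor cells, 698 FPKM in the TME and 610 FPKM in control cells. Thus neuronal RNA was high in the control alone of the 3 libraries, whereas blood cell RNA was high in both the control and the TME. Of 4 tested fat body markers, 3 were lower in tumor and none was higher. *Fbp1*, which encodes a fat body receptor for larval storage proteins, was listed at 0 in tumor cells and was at 0.139 FPKM in the TME and 19.0 FPKM in control cells. The storage protein genes *Lsp1alpha* and *Lsp1gamma* were below 1 FPKM in all 3 libraries. Of 11 muscle and myoblast markers, 5 were lower in tumor and 2 were higher. The myoblast regulator *Him* was at 0.712 FPKM in tumor cells, 17.5 FPKM in the TME and 30.8 FPKM in control cells, whereas the muscle genes *sls* and *Mlc2* were 3.61-fold (2.84 to 4.60) and 2.30-fold higher in tumor (1.43 to 3.73). Of 12 glial markers, 5 were lower and 2 were higher, with *repo*, the defining factor of glia, at 3.06 FPKM in tumor cells, 12.1 FPKM in the TME and 27.5 FPKM in control cells. Whether tissue from outside the disc entered the control pool was not tested, so a ratio below compares the tumor with the library labelled control. The marker levels move with many of the genes below that are lower in tumor than in control. Their part in those results was not tested, and fewer cells of a type cannot be told apart from less RNA per cell. The counts of each list by role are also given against the TME, which shares its discs with the tumor and which holds the hemocyte RNA too.

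Of the 9166 genes compared, 941 were higher in tumor than in control (10.3%) and 1461 were lower (15.9%). A counting interval could be given for 927 of the 941 and for 1400 of the 1461. It excluded 1 for 864 genes higher in tumor and for 1276 genes lower. A further 4099 genes (44.7%) lay within 1.5-fold, and the median log2 difference over all tested genes was -0.06. The larger differences ran mostly downward. At 4-fold or more, 197 genes were higher (2.15%) and 906 were lower (9.88%), and at 16-fold or more 24 were higher (0.262%) and 510 were lower (5.56%). Of the called genes, 11 were listed at 0 in control and 184 were listed at 0 in tumor. With the TME in place of the control, 434 of 8464 tested genes were higher in tumor (5.13%) and 515 were lower (6.08%), so both counts were less than those against the control by more than 1.5 times.

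**Figure D1:**
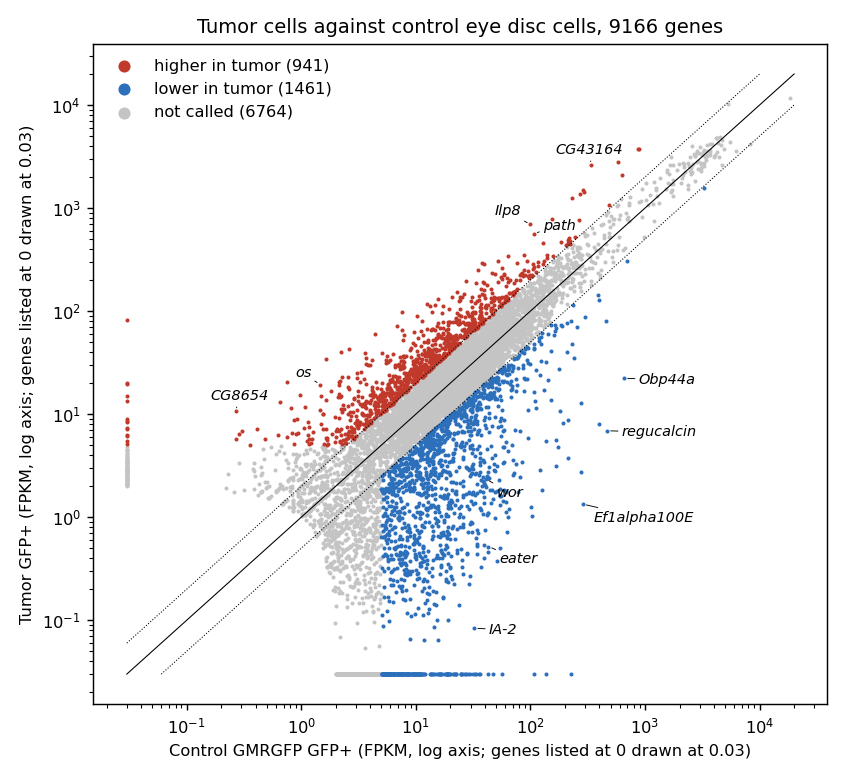
Tumor FPKM (vertical, log axis) against control FPKM (horizontal, log axis) for the 9166 genes compared, with 941 genes higher in tumor in red, 1461 lower in blue and the others in grey; the solid line marks equal values and the dotted lines 2-fold. The blue points reach much further from the line than the red ones, and 184 of them sit on the lower edge, where tumor values listed at 0 are drawn.

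Among genes higher in tumor, those whose counting interval lay furthest from 1 included the apical matrix gene *dp* (*dumpy*), a giant zona pellucida domain protein that anchors epithelia to the overlying cuticle. It was at 38.8 FPKM in tumor cells, 13.1 FPKM in the TME and 3.61 FPKM in control cells, 10.8-fold higher than in control (9.19 to 12.7). *CG43164* (*narrow*), which encodes a C-type lectin that works with Dumpy in shaping appendages, was one of the most abundant RNAs of this group, with 2604 FPKM in tumor cells, 1100 FPKM in the TME and 340 FPKM in control cells, or 7.66-fold (7.19 to 8.16). Both followed the order tumor, TME, control. *fj*, the Golgi kinase that acts on the cadherins Fat and Dachsous, was at 112 FPKM in tumor cells, 34.7 FPKM in the TME and 13.3 FPKM in control cells, 8.48-fold higher (6.71 to 10.8). *CG11852* (*Jhbp7*), of the juvenile hormone binding protein family, was at 59.4 FPKM in tumor cells, 3.00 FPKM in the TME and 4.38 FPKM in control cells, 13.6-fold higher (6.34 to 34.7). Here the tumor stood apart from both other libraries. *CG1136* followed the same pattern, with 39.7 FPKM in tumor cells, 4.72 FPKM in the TME and 2.20 FPKM in control cells, 18-fold higher (9.44 to 37.7). The known tumor-secreted factors *Ilp8*, a relaxin-like hormone that delays pupariation, and *os* (*upd1*), a JAK-STAT ligand, also belong to this group, at 6.94-fold (5.77 to 8.44) and 13.3-fold (5.73 to 36.5).

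Among the 20 genes lower in tumor with the interval furthest from 1 were *fne* of the neuronal marker list and *eater* of the hemocyte list. *IA-2*, a protein of dense core vesicles, was at 0.0836 FPKM in tumor cells, 1.11 FPKM in the TME and 32.4 FPKM in control cells. *Ef1alpha100E* (*eEF1alpha2*), a translation elongation factor paralog, was at 1.34 FPKM in tumor cells, 8.65 FPKM in the TME and 287 FPKM in control cells, 214-fold lower in tumor (96.3 to 574). *fne*, an RNA-binding protein of the Elav family, was at 0.376 FPKM in tumor cells, 1.82 FPKM in the TME and 50.6 FPKM in control cells, 134-fold lower (39.0 to 561). For these genes the TME lay between the tumor and the control. *eater*, the phagocytic receptor of hemocytes, was at 0.518 FPKM in tumor cells, 40.5 FPKM in the TME and 43.0 FPKM in control cells, 82.9-fold lower (27.5 to 398). *PO45* (*PPO2*), the prophenoloxidase of crystal cells, was at 1.02 FPKM in tumor cells, 131 FPKM in the TME and 103 FPKM in control cells, 100-fold lower (38.1 to 363). In these cases the TME and control were close to each other and the tumor stood apart. *m6*, a Bearded family member of the Enhancer of split complex, also had its TME value between the others, with 2.77 FPKM in tumor cells, 45.3 FPKM in the TME and 274 FPKM in control cells, 98.8-fold lower (41.4 to 301).

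The lists of genes by role differed in how many of their members were called. Of the 29 lists, which fall in 4 classes, 15 had a median difference above that of all tested genes. The class of secreted proteins had 62 of 255 tested members higher and 62 lower, whereas transcription factors and transporters had more members lower than higher and the class of metabolism more higher than lower.

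**Figure D2:**
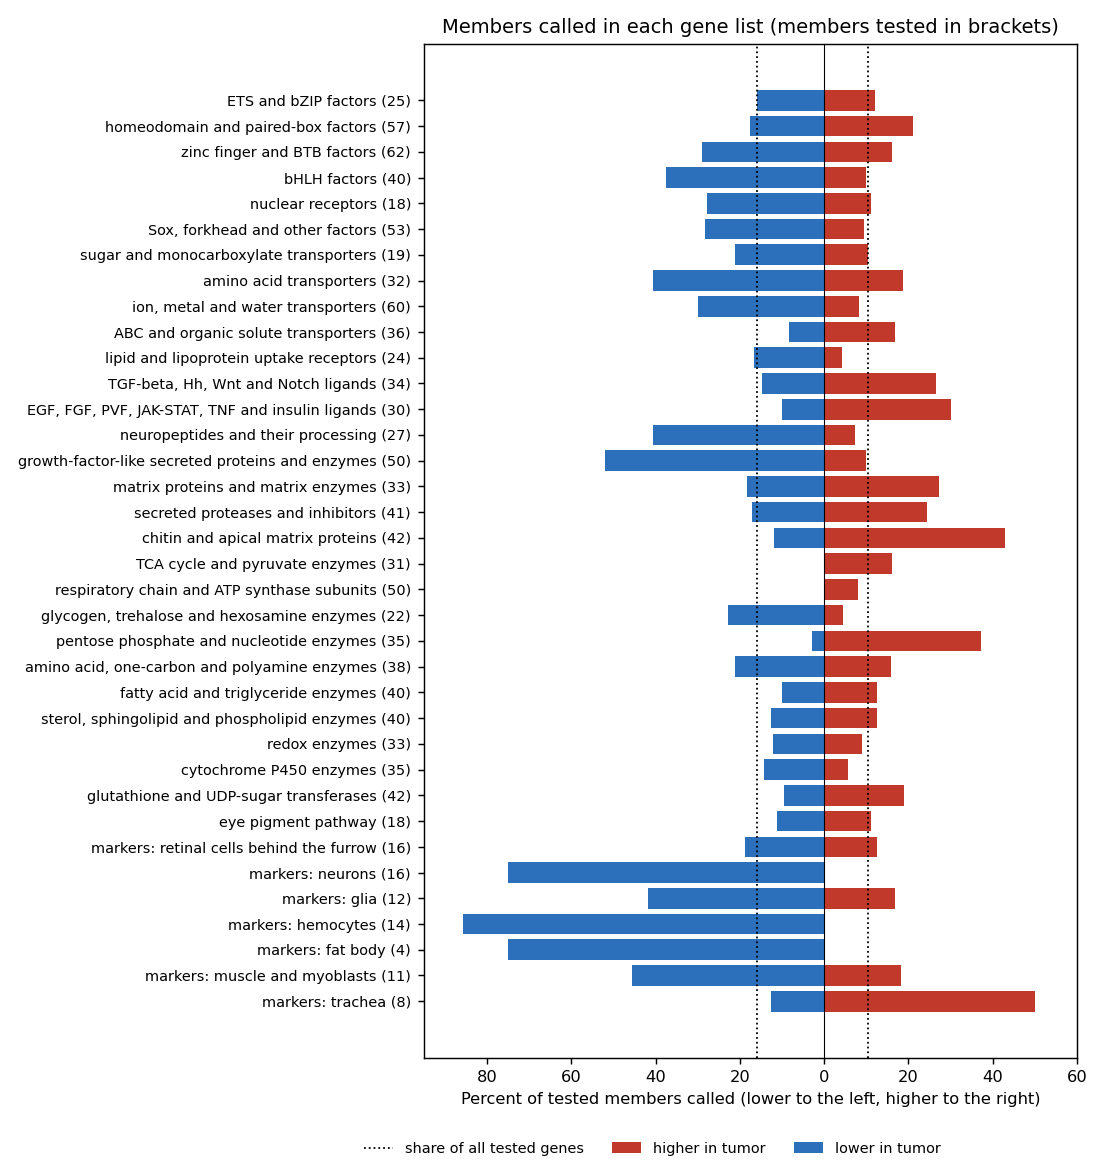
Percent of the tested members of each of the 36 lists that were higher in tumor (red, to the right) or lower (blue, to the left), with the number tested in brackets and dotted lines at the shares over all tested genes, 10.3% and 15.9%. Chitin and apical matrix proteins and the pentose phosphate and nucleotide enzymes reach furthest right among the lists by role, and the hemocyte markers furthest left.

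Transcription factors, like all tested genes, were lower in tumor more often than higher. Of 255 tested, 36 were higher (14.1%) and 67 were lower (26.3%), against 10.3% and 15.9% of all tested genes. Their median log2 difference was -0.15, against -0.06 over all tested genes. Homeodomain and paired-box factors, which specify body parts and cell types, had 12 of 57 members higher, 2.05-fold to 9.67-fold, and 10 lower; against the TME, 6 of 46 were higher and 3 were lower. *Dll*, the selector of distal appendages including the antenna, was at 65.0 FPKM in tumor cells, 26 FPKM in the TME and 14.8 FPKM in control cells, 4.39-fold higher (3.22 to 5.98). *eyg*, a paired-domain factor of eye growth, was at 8.92 FPKM in tumor cells, 4.03 FPKM in the TME and 0.923 FPKM in control cells, 9.67-fold higher (3.53 to 37.6), and its neighbor and relative *toe* was 4.58-fold higher (2.33 to 9.64). *ss*, the bHLH-PAS factor that gives the antenna its identity, was at 14.7 FPKM in tumor cells, 5.85 FPKM in the TME and 2.08 FPKM in control cells, 7.07-fold higher (4.04 to 13.4). *Dll* and *ss* are factors of the antennal part of the disc, which lies outside the region where GMR is active. Whether the part of the disc that is labeled bears on their ratios was not tested. Eye progenitor factors that were not called lay close together, with *hth* at 108 FPKM in tumor cells, 156 FPKM in the TME and 99.7 FPKM in control cells, and *toy* at 120 FPKM in tumor cells, 94.3 FPKM in the TME and 81.7 FPKM in control cells.

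Zinc finger and BTB factors had 10 of 62 members higher, 2.49-fold to 5.39-fold, and 18 lower. *fru*, a BTB factor best known for its sex-specific isoforms in the nervous system, was at 104 FPKM in tumor cells, 58.7 FPKM in the TME and 19.3 FPKM in control cells, 5.39-fold higher (4.16 to 7.0), and *ab*, another BTB factor, was at 140 FPKM in tumor cells, 87.3 FPKM in the TME and 35.3 FPKM in control cells, 3.98-fold higher (3.46 to 4.57). *drm* and *sob*, of the odd-skipped family, were 4.46-fold (3.52 to 5.63) and 4.67-fold higher (3.25 to 6.69). For all 4 of these genes the TME lay between the tumor and the control. Of 25 ETS and bZIP factors, 3 were higher and 4 were lower, and against the TME 2 of 23 were higher and 1 was lower. *Ets21C*, an ETS factor that responds to JNK, was at 58.4 FPKM in tumor cells, 16.1 FPKM in the TME and 15.7 FPKM in control cells, 3.73-fold higher (2.64 to 5.46), so that only the tumor was raised. *Ets98B* was at 8.71 FPKM in tumor cells, 4.80 FPKM in the TME and 0.866 FPKM in control cells, and *aop*, the ETS repressor that Ras signaling turns off at the protein level, was 2.03-fold higher (1.81 to 2.27). The most abundant factor of this list, the stress factor *crc* (the fly ATF4), was at 846 FPKM in tumor cells, 624 FPKM in the TME and 502 FPKM in control cells, 1.69-fold (1.58 to 1.80), and was not called. Other factors higher in tumor were *h*, a bHLH repressor of the furrow, at 3.49-fold (2.78 to 4.39), *foxo*, the forkhead factor held in check by insulin signaling, at 2.93-fold (2.12 to 4.15), and the nuclear receptor *ftz-f1* at 2.52-fold (1.88 to 3.40).

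The 67 factors lower in tumor included *wor*, *nerfin-1* and *pros*, which are known from neuroblasts and neurons. *wor*, a Snail family factor of neuroblasts, was at 2.36 FPKM in tumor cells, 2.68 FPKM in the TME and 40.7 FPKM in control cells, 17.3-fold lower in tumor (8.68 to 37.8). *nerfin-1*, which keeps neurons differentiated, was at 13.7 FPKM in tumor cells, 17.8 FPKM in the TME and 152 FPKM in control cells, 11.1-fold lower (8.8 to 14.3). *pros* was at 2.47 FPKM in tumor cells, 4.05 FPKM in the TME and 81.7 FPKM in control cells, 33.0-fold lower (22 to 51.8). In each case the tumor and TME values were close and the control was far above both. Of 40 bHLH factors 15 were lower, among them *Hey*, a Notch target in newborn neurons, with 1.78 FPKM in tumor cells, 4.30 FPKM in the TME and 61.1 FPKM in control cells, and *Oli*, with 1.77 FPKM in tumor cells, 4.61 FPKM in the TME and 48.8 FPKM in control cells. Among 53 Sox, forkhead and other factors 15 were lower, and *SoxN*, a Sox factor of the nervous system, was at 4.05 FPKM in tumor cells, 9.36 FPKM in the TME and 48.8 FPKM in control cells, 12.0-fold lower (8.25 to 18.6). *bab1*, *gce* and *Fer2* were listed at 0 in tumor cells and were at 9.68, 10.2 and 10.4 FPKM in control cells. *zfh1*, which hemocytes and myoblasts express, differed in that its TME value lay near the control, with 2.24 FPKM in tumor cells, 32.6 FPKM in the TME and 38.8 FPKM in control cells. Nuclear receptors had 2 of 18 members higher and 5 lower than in control, and 1 of 17 higher and none lower than in the TME. Against the TME, 2 zinc finger and BTB factors, 2 bHLH factors and 1 Sox, forkhead or other factor were higher. On the same comparison, 6 of 58 zinc finger and BTB factors, 4 of 36 bHLH factors and 4 of 48 Sox, forkhead and other factors were lower in tumor, where 6.08% of all tested genes were; against the control these counts were 18 of 62, 15 of 40 and 15 of 53.

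**Figure D3:**
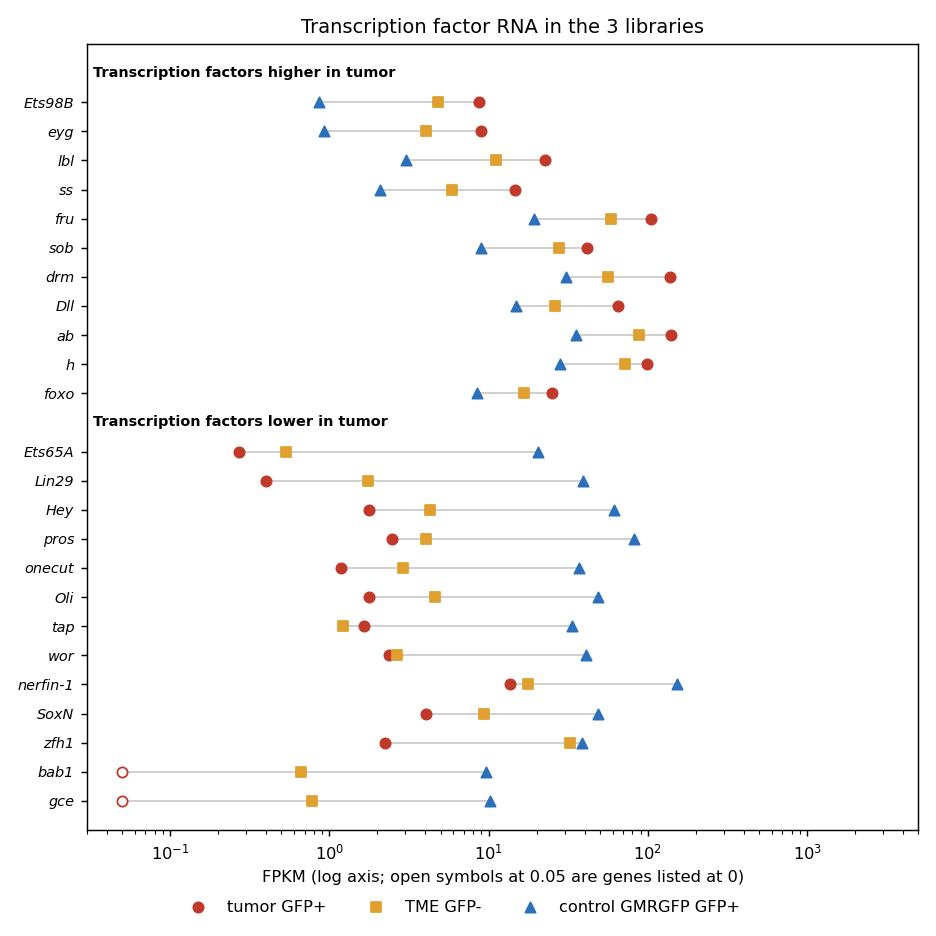
FPKM (log axis) of 24 transcription factor genes in tumor GFP+ cells (circles), TME GFP- cells (squares) and control GFP+ cells (triangles), with open circles for genes listed at 0. In the upper group the TME lies between tumor and control, and in the lower group, apart from *zfh1*, the tumor and TME values lie left of a control value that is far above both.

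Transporters were also lower more often than higher, with 20 of 171 higher (11.7%) and 42 lower (24.6%). The shares over all tested genes were 10.3% and 15.9%. The median log2 difference of the transporters was -0.51. Yet a small set of nutrient carriers was high in tumor cells. *path*, an amino acid transporter of the SLC36 family that supports growth, was at 566 FPKM in tumor cells, 83.8 FPKM in the TME and 107 FPKM in control cells, 5.29-fold higher (4.78 to 5.87). *mnd* and *JhI-21*, light chains that carry large neutral amino acids with a shared heavy chain, were 2.77-fold (2.25 to 3.45) and 2.58-fold higher (2.16 to 3.09), whereas the heavy chain *CD98hc* was at 212 FPKM in tumor cells, 145 FPKM in the TME and 174 FPKM in control cells, 1.22-fold (1.09 to 1.36), and was not called. *CG5535*, an annotated cationic amino acid carrier, was at 32.8 FPKM in tumor cells, 8.78 FPKM in the TME and 7.41 FPKM in control cells, 4.42-fold higher (2.82 to 7.06). For *path*, *mnd*, *JhI-21* and *CG5535* the tumor stood above both other libraries, which were close to each other. In all, 6 of 32 members of the amino acid transporter list were higher than in control. Against the TME 6 of 25 were higher, where the share over all genes was 5.13%. The list also holds neuronal carriers of acetylcholine and monoamines, which are not amino acid transporters. The 13 members of this list lower in tumor than in control included the vesicular transporters of neurotransmitters. *VGlut* was listed at 0 in tumor cells and was at 1.37 FPKM in the TME and 21.3 FPKM in control cells. The acetylcholine carrier *VAChT* was at 0.155, 0.277 and 12.4 FPKM, and *VGAT* at 0.218, 0.252 and 9.69 FPKM in that order. A single member of the 25 was lower in tumor than in the TME.

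Among carriers of sugars and monocarboxylates, 2 of 19 were higher and 4 were lower. *MFS3*, of the major facilitator family, was at 179 FPKM in tumor cells, 66.8 FPKM in the TME and 42 FPKM in control cells, 4.26-fold higher (3.54 to 5.17). *Glut1*, a glucose transporter, was instead at 3.45 FPKM in tumor cells, 8.05 FPKM in the TME and 39.5 FPKM in control cells, 11.4-fold lower (5.76 to 23.6), and the trehalose transporter *Tret1-1* was at 37.3 FPKM in tumor cells, 21.9 FPKM in the TME and 21.6 FPKM in control cells, 1.73-fold (1.27 to 2.34), and was not called. The members of this small list did not move one way, and against the TME 2 of 18 were higher and 2 were lower.

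Ion, metal and water transporters had 5 of 60 members higher and 18 lower, against 3 of 49 higher and 7 lower than in the TME. *foi*, a zinc transporter of the ZIP family that is also needed for adhesion of migrating cells, was at 288 FPKM in tumor cells, 61.9 FPKM in the TME and 39.5 FPKM in control cells, 7.29-fold higher (6.33 to 8.47). *Ncc69*, a cation-chloride cotransporter, was at 127 FPKM in tumor cells, 49.7 FPKM in the TME and 24.3 FPKM in control cells, 5.23-fold higher (4.40 to 6.2). *Ca-P60A* (*SERCA*), the calcium pump of the endoplasmic reticulum, was 2.45-fold higher (2.07 to 2.89). The lower members included the potassium channel *Shab*, listed at 0 in tumor cells and at 0.286 FPKM in the TME and 6.91 FPKM in control cells, and *nrv3*, a beta subunit of the sodium pump, at 3.39 FPKM in tumor cells, 3.46 FPKM in the TME and 57.7 FPKM in control cells. The aquaporin *CG7777* (*Prip*) was at 0.992 FPKM in tumor cells, 44.8 FPKM in the TME and 49.4 FPKM in control cells, 49.9-fold lower (13.2 to 412). Neither ferritin subunit was called, with *Fer1HCH* at 250 FPKM in tumor cells, 455 FPKM in the TME and 415 FPKM in control cells and *Fer2LCH* at 302 FPKM in tumor cells, 462 FPKM in the TME and 529 FPKM in control cells.

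Of 36 ABC and organic solute transporters, 6 were higher and 3 were lower, and against the TME 3 of 34 were higher and 3 were lower. *CG8654*, an annotated organic solute carrier, had the largest ratio of these, with 10.7 FPKM in tumor cells, 1.59 FPKM in the TME and 0.267 FPKM in control cells; the control value rests on so few fragments that its 39.9-fold ratio has an interval of 6.80 to 1621. *MRP*, a multidrug resistance ABC pump, was 2.36-fold higher (2.03 to 2.76), and *w*, the ABC subunit that loads eye pigment granules, is counted here and in the pigment list, with the values and the limit given above. Lipid uptake receptors and carriers had 1 of 24 members higher, the scavenger receptor *emp* at 2.56-fold (2.06 to 3.19), and 4 lower; against the TME, 1 of 21 was higher and 3 were lower. *Karl*, a lipocalin, was at 3.56 FPKM in tumor cells, 71.7 FPKM in the TME and 70.7 FPKM in control cells, and *Npc2a*, a carrier of sterols, at 27.1 FPKM in tumor cells, 110 FPKM in the TME and 178 FPKM in control cells.

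Among secreted proteins, the ligands of the major signaling pathways were higher in tumor more often than all genes together. Of 34 tested members of the list named for TGF-beta, Hh, Wnt and Notch ligands, 9 were higher (26.5%) and 5 were lower (14.7%). That list also holds other ligands, such as semaphorins and netrins, and its lower members included *Sema-1a* and *fog*. Of 30 tested members of the list named for EGF, FGF, PVF, JAK-STAT, TNF and insulin ligands, 9 were higher (30%) and 3 were lower (10%). It also holds Toll and Torso ligands, of which the paper reports *spz3* and *spz5* as higher in tumor. Against the TME, 5 of 31 of the first list were higher and 1 was lower, and 9 of 32 of the second were higher and 5 were lower. *dpp*, the BMP ligand, was at 35.9 FPKM in tumor cells, 19.1 FPKM in the TME and 7.28 FPKM in control cells, 4.93-fold higher (3.46 to 7.1), and its extracellular antagonist *sog* was at 65.6 FPKM in tumor cells, 14.1 FPKM in the TME and 7.57 FPKM in control cells, 8.66-fold higher (6.59 to 11.6). *wg* and *Wnt6*, neighboring Wnt genes, were 4.15-fold (2.82 to 6.11) and 3.36-fold higher (2.23 to 5.33), and the Notch ligand *Ser* was at 65.5 FPKM in tumor cells, 21.7 FPKM in the TME and 13.7 FPKM in control cells, 4.78-fold higher (3.94 to 5.80). All of these were lowest in the control. *ImpL2*, the secreted insulin antagonist of wasting tumors, reached 1246 FPKM in tumor cells, against 244 FPKM in the TME and 232 FPKM in control cells, 5.38-fold higher (4.80 to 6.05). Its tumor value stood apart from the other libraries, which were close to each other. *Wnt4* went the other way, with 1.54 FPKM in tumor cells, 4.09 FPKM in the TME and 17.7 FPKM in control cells, 11.5-fold lower (5.41 to 26.6), and so did the activin *Actbeta*, with 3.55, 1.18 and 17.9 FPKM in that order. The TNF ligand *egr* was at 8.18 FPKM in tumor cells, 16.1 FPKM in the TME and 32.9 FPKM in control cells, 4.02-fold lower (2.70 to 6.37), and *spz*, the Toll ligand that hemocytes also make, at 2.60 FPKM in tumor cells, 30.9 FPKM in the TME and 33.0 FPKM in control cells, 12.7-fold lower (6.10 to 29.8). The EGF receptor ligand *spi* was at 144 FPKM in tumor cells, 152 FPKM in the TME and 189 FPKM in control cells and was not called.

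Neuropeptides and their processing enzymes had 2 of 27 members higher and 11 lower, against 2 of 14 higher and 2 lower than in the TME. *Ast-C* was at 8.83 FPKM in tumor cells, 0.675 FPKM in the TME and 2.64 FPKM in control cells, 3.35-fold higher (1.19 to 11.6), and *itp*, the ion transport peptide, at 76.3 FPKM in tumor cells, 38.9 FPKM in the TME and 28.1 FPKM in control cells, 2.71-fold higher (1.90 to 4.01). *Akh*, the adipokinetic hormone made by cells of the corpora cardiaca outside the disc, was listed at 0 in tumor cells and was at 2.88 FPKM in the TME and 36.2 FPKM in control cells. *hug*, *Dh31* and *capa*, peptides of neurosecretory cells, were likewise listed at 0 in tumor cells and were at 9.40, 8.76 and 6.00 FPKM in control cells. Like most of the neuronal markers above, these peptides were lower in tumor than in control. Whether they share a source with those markers was not tested.

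The list of growth-factor-like secreted proteins and enzymes, which takes in immune and odorant-binding proteins, had 5 of 50 members higher and 26 lower. Against the TME, 2 of 46 were higher and 26 were lower, the largest share of any list by role there. Many of its members are known from hemocytes and fat body. *Obp44a*, an odorant-binding protein family member, was at 22.3 FPKM in tumor cells, 126 FPKM in the TME and 656 FPKM in control cells, 29.5-fold lower (18.9 to 48.5). *nimB1*, a secreted nimrod protein, was listed at 0 in tumor cells and was at 20.7 FPKM in the TME and 18.3 FPKM in control cells, and the antimicrobial peptide *Mtk* was listed at 0 in tumor cells and was at 16.7 FPKM in the TME and 16.2 FPKM in control cells. Members higher in tumor were *Idgf4*, a chitinase-like growth factor, with 133 FPKM in tumor cells, 160 FPKM in the TME and 54.8 FPKM in control cells, 2.43-fold higher than in control (1.99 to 3.01), and *Mcr*, a complement-related protein of septate junctions, at 3.05-fold (2.68 to 3.47). Of these, *Idgf4* was highest in the TME.

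Of 33 matrix proteins and matrix enzymes, 9 were higher, 2.69-fold to 7.72-fold, and 6 were lower, and against the TME 7 of 33 were higher and 6 were lower. *Tig*, which encodes tiggrin, a ligand of integrins, was at 291 FPKM in tumor cells, 51.9 FPKM in the TME and 37.6 FPKM in control cells, 7.72-fold higher (7.0 to 8.55). *Sulf1*, which trims sulfate from heparan sulfate chains, was at 138 FPKM in tumor cells, 26.9 FPKM in the TME and 24.1 FPKM in control cells, 5.73-fold higher (4.88 to 6.74), and *dally*, a glypican that carries such chains, was at 214 FPKM in tumor cells, 85.9 FPKM in the TME and 55.9 FPKM in control cells, 3.83-fold higher (3.38 to 4.34). The metalloprotease *CG4096* (*AdamTS-B*) was 4.28-fold higher (3.26 to 5.64). The lower members included basement membrane genes that hemocytes and fat body express. *Cg25C* (*Col4a1*), a chain of collagen IV, was at 6.14 FPKM in tumor cells, 87.9 FPKM in the TME and 54.8 FPKM in control cells, 8.94-fold lower (6.80 to 11.8), *BM-40-SPARC*, which binds that collagen, was at 10.8 FPKM in tumor cells, 187 FPKM in the TME and 183 FPKM in control cells, 16.9-fold lower (10.7 to 28.6), and the peroxidasin *Pxn* was 17.4-fold lower (9.75 to 34.2). *Cg25C* and *Pxn* are also among the hemocyte markers counted above. *Mmp2*, a matrix metalloprotease, was at 93.6 FPKM in tumor cells, 101 FPKM in the TME and 96.7 FPKM in control cells, 0.968-fold (0.858 to 1.09). By contrast, *Mmp1* of the same list was 2.69-fold higher in tumor than in control, the smallest ratio among the higher members.

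Chitin and apical matrix proteins had the largest share of members higher in tumor of any list by role, 18 of 42 (42.9%), with 5 lower (11.9%) and a median log2 difference of 0.86. Besides *dp*, the chitinase *Cht6* was at 113 FPKM in tumor cells, 32 FPKM in the TME and 14.8 FPKM in control cells, 7.68-fold higher (6.33 to 9.39), the cuticle protein *TwdlE* was 5.30-fold higher (3.46 to 8.24), and *Gasp*, a chitin-binding protein, was at 294 FPKM in tumor cells, 357 FPKM in the TME and 76.5 FPKM in control cells, 3.84-fold higher (3.25 to 4.56). Against the TME, 6 of 41 were higher and 5 were lower, and the median log2 difference was 0.02, where that of all tested genes was 0.13. Of 8 tracheal markers, 5 of which are also members of this list, 4 were higher in tumor than in control and 1 was lower, *vvl* at 3.52-fold (2.06 to 5.99). The tracheal factor *trh* was at 1.37 FPKM in tumor cells, 1.24 FPKM in the TME and 2.98 FPKM in control cells, and the tracheal FGF receptor *btl* at 1.21, 1.79 and 2.19 FPKM in that order; the part of tracheal RNA in this list was not tested. Secreted proteases and their inhibitors had 10 of 41 members higher and 7 lower, against 8 of 40 higher and 6 lower than in the TME. *scaf*, a catalytically inactive serine protease homolog, was at 196 FPKM in tumor cells, 41.1 FPKM in the TME and 27.3 FPKM in control cells, 7.18-fold higher (6.00 to 8.62), and *Kal1*, the fly homolog of the anosmin gene, was 5.30-fold higher (4.15 to 6.85). The serpin *Spn88Eb* was at 0.424 FPKM in tumor cells, 18.4 FPKM in the TME and 9.96 FPKM in control cells.

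**Figure D4:**
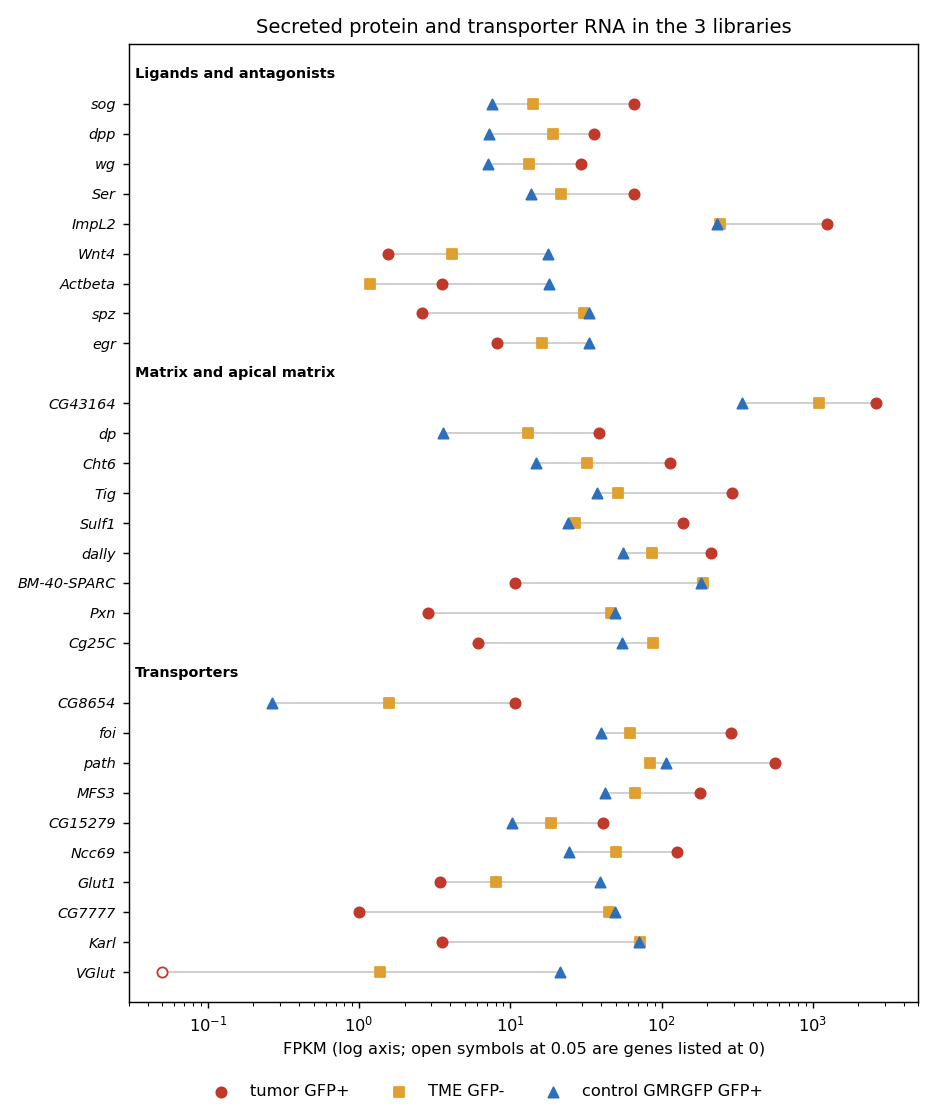
FPKM (log axis) of 28 genes of secreted ligands, matrix proteins and transporters in tumor GFP+ cells (circles), TME GFP- cells (squares) and control GFP+ cells (triangles); the open circle marks a gene listed at 0. The genes high in tumor have their TME value near or above the control, and *BM-40-SPARC*, *Pxn*, *Karl* and *CG7777* have TME and control values that nearly coincide, both above the tumor.

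The class of metabolism was higher in tumor more often than lower, with 53 of 375 tested members higher (14.1%), 38 lower (10.1%) and a median log2 difference of 0.24. Besides enzymes, this class takes in the transporters and trafficking subunits of the eye pigment list, such as *w* and *cm*. Of the lists in this class, that of pentose phosphate and nucleotide enzymes moved furthest. The pentose phosphate pathway and nucleotide synthesis supply ribose, purines and pyrimidines to dividing cells, and the list also holds some enzymes of nucleotide breakdown and salvage. Of 35 tested enzymes, 13 were higher (37.1%), 2.01-fold to 3.92-fold, and 1 was lower (2.86%), and 32 of the 35 had a tumor value above the control value (91.4%), as had 46.6% of all tested genes. *CG6767* (*Prps*), which makes the activated ribose for all nucleotides, was at 230 FPKM in tumor cells, 104 FPKM in the TME and 58.6 FPKM in control cells, 3.92-fold higher (3.32 to 4.66). *Pgd*, of the oxidative pentose phosphate branch, was at 46.4 FPKM in tumor cells, 37.6 FPKM in the TME and 16.2 FPKM in control cells, 2.86-fold higher (2.04 to 4.20). *ras* (*raspberry*), the rate-limiting enzyme of GTP synthesis and not the oncogene, was at 78.8 FPKM in tumor cells, 56.1 FPKM in the TME and 31.8 FPKM in control cells, 2.47-fold higher (2.00 to 3.07). Each followed the order tumor, TME, control. The serine hydroxymethyltransferase *CG3011* (*Shmt*), which feeds the folate cycle, was 2.81-fold higher (2.28 to 3.48), and the transketolase *CG8036* was at 277 FPKM in tumor cells, 209 FPKM in the TME and 139 FPKM in control cells, 1.99-fold (1.78 to 2.22), just outside the call. The exception was *CG17224*, at 1.13 FPKM in tumor cells, 6.05 FPKM in the TME and 7.07 FPKM in control cells. Against the TME, 3 of 35 were higher, 1 was lower and 27 of 35 had the larger value in tumor, where 59.4% of all tested genes had.

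The lists of respiratory subunits and of TCA cycle and pyruvate enzymes shared a smaller shift. Of 50 respiratory chain and ATP synthase subunits, 4 were higher (8.0%), none was lower, and 44 had a tumor value above the control value (88.0%). Over all tested genes 10.3% were higher, 15.9% were lower and 46.6% had a tumor value above the control value. Their median log2 difference was 0.56. At 1.5-fold, 23 of the 50 were higher, where 20% of all tested genes were. *blw*, the alpha subunit of ATP synthase, was at 474 FPKM in tumor cells, 298 FPKM in the TME and 222 FPKM in control cells, 2.13-fold higher (1.96 to 2.32), and *Cyt-c-p*, the cytochrome c of most tissues, was at 276 FPKM in tumor cells, 125 FPKM in the TME and 117 FPKM in control cells, 2.36-fold higher (1.87 to 3.00). *CG1746* (*ATPsynC*), the c subunit of the rotor, was at 1288 FPKM in tumor cells, 1091 FPKM in the TME and 735 FPKM in control cells, 1.75-fold (1.60 to 1.92), and the ADP/ATP carrier *sesB* at 916 FPKM in tumor cells, 634 FPKM in the TME and 474 FPKM in control cells, 1.93-fold (1.80 to 2.07); neither was called. Of 31 TCA cycle and pyruvate enzymes, 5 were higher (16.1%), none was lower, and 28 had a tumor value above the control value (90.3%). *Pepck*, the enzyme that starts gluconeogenesis from oxaloacetate, stood apart with 250 FPKM in tumor cells, 57.6 FPKM in the TME and 34.9 FPKM in control cells, 7.16-fold higher (6.01 to 8.59), and its paralog *CG10924* was 2.44-fold higher (1.10 to 5.19). *Gdh*, which brings glutamate into the cycle, was at 271 FPKM in tumor cells, 201 FPKM in the TME and 108 FPKM in control cells, 2.50-fold higher (2.19 to 2.86), and the aconitase *Acon* was 2.38-fold higher (2.06 to 2.77). *Idh*, the NADP-dependent isocitrate dehydrogenase, was at 263 FPKM in tumor cells, 262 FPKM in the TME and 218 FPKM in control cells. Against the TME, 1 respiratory subunit and 2 TCA and pyruvate enzymes were higher and none was lower. There the tumor value was the larger for 41 of the 50 respiratory subunits and for 25 of the 31 TCA and pyruvate enzymes. Of all genes tested against the TME, 5.13% were higher, 6.08% were lower and 59.4% had the larger value in tumor.

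Of 40 fatty acid and triglyceride enzymes, 5 were higher (12.5%), a share near that of all genes, and 4 were lower (10%), with a median log2 difference of 0.10. *CG3523* (*FASN1*), the fatty acid synthase, was at 224 FPKM in tumor cells, 74.1 FPKM in the TME and 89.6 FPKM in control cells, 2.50-fold higher (2.35 to 2.67). *ACC*, which makes its substrate, was 2.26-fold higher (1.96 to 2.61), and the desaturase *desat1* was 2.41-fold higher (2.12 to 2.75). *CG5326*, an elongase of the ELOVL family, was at 72.2 FPKM in tumor cells, 18.1 FPKM in the TME and 6.89 FPKM in control cells, 10.5-fold higher (6.47 to 17.6). *CG31522*, another elongase of this family, was at 52.5 FPKM in tumor cells, 73.2 FPKM in the TME and 91.4 FPKM in control cells and was not called. The lower members included the acyltransferase *CG3812* (*Agpat1*), with 4.17 FPKM in tumor cells, 5.67 FPKM in the TME and 21.6 FPKM in control cells. Of 40 sterol, sphingolipid and phospholipid enzymes, 5 were higher and 5 were lower. *Cyp18a1*, the hydroxylase that inactivates ecdysone, was at 43.5 FPKM in tumor cells, 5.43 FPKM in the TME and 9.07 FPKM in control cells, 4.80-fold higher (3.27 to 7.17), and the lipid phosphatases *wun* and *wun2* were 2.67-fold (2.11 to 3.45) and 4.0-fold higher (2.98 to 5.51). The ceramide synthase *schlank* was at 28.1 FPKM in tumor cells, 43.1 FPKM in the TME and 70.3 FPKM in control cells, 2.50-fold lower (1.98 to 3.17), and the ceramidase *CDase* was 5.28-fold lower (3.21 to 8.69). Against the TME, 3 of 39 fatty acid and triglyceride enzymes were higher and 1 was lower, as were 2 and 1 of 39 sterol, sphingolipid and phospholipid enzymes.

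Amino acid, one-carbon and polyamine enzymes had 6 of 38 members higher and 8 lower, against 3 of 34 higher and 4 lower than in the TME. *Sam-S*, which makes S-adenosylmethionine, was at 465 FPKM in tumor cells, 262 FPKM in the TME and 184 FPKM in control cells, 2.52-fold higher (2.19 to 2.92). *CG1673* (*Bcat*), the aminotransferase of branched-chain amino acids, was at 67.8 FPKM in tumor cells, 25.2 FPKM in the TME and 16.1 FPKM in control cells, 4.21-fold higher (3.21 to 5.56), and the tyrosine decarboxylase *Tdc1* was 6.11-fold higher (3.93 to 9.77). The glutamine synthetases went the other way, with *Gs1* at 0.267 FPKM in tumor cells, 3.42 FPKM in the TME and 29.9 FPKM in control cells and *Gs2*, the enzyme of glia, at 0.657, 0.432 and 15.5 FPKM in that order. *Gad1*, which makes GABA, was listed at 0 in tumor cells and was at 0.880 FPKM in the TME and 15.8 FPKM in control cells. *Oda*, the antizyme that controls polyamine synthesis, was at 298 FPKM in tumor cells, 440 FPKM in the TME and 449 FPKM in control cells and was not called.

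Carbohydrate storage and amino sugar enzymes had 1 of 22 members higher, the glycogen phosphorylase *GlyP* at 2.02-fold (1.67 to 2.45), and 5 lower; against the TME, 1 of 22 was higher and 2 were lower. *mmy*, which makes UDP-N-acetylglucosamine for chitin and glycans, was at 3.08 FPKM in tumor cells, 12.7 FPKM in the TME and 23.6 FPKM in control cells, 7.67-fold lower (3.89 to 16.4). It is also counted among the lower members of the chitin and apical matrix list, most of whose called members were higher.

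Detoxification and redox genes had no common direction. Of 33 redox enzymes, 3 were higher and 4 were lower. The NADPH oxidase *Nox* was at 19.7 FPKM in tumor cells, 4.57 FPKM in the TME and 3.64 FPKM in control cells, 5.41-fold higher (3.57 to 8.22), and the thioredoxin reductase *Trxr-1* and the peroxiredoxin *Jafrac1* were 2.17-fold (1.90 to 2.48) and 2.15-fold higher (1.88 to 2.46). *Irc*, an immune-regulated catalase, was at 2.68 FPKM in tumor cells, 20.4 FPKM in the TME and 30.9 FPKM in control cells, 11.5-fold lower (5.97 to 22.8). Of 42 glutathione and UDP-sugar transferases, 8 were higher and 4 were lower. *GstD3* was at 261 FPKM in tumor cells, 59.7 FPKM in the TME and 56.9 FPKM in control cells, 4.58-fold higher (3.47 to 6.17), and *GstE5* was listed at 0 in control cells and was at 13.5 FPKM in tumor cells and 8.13 FPKM in the TME. These genes lie in clusters of similar paralogs, and how reads shared between them were divided is not given in the sources used here. Of 35 members of the cytochrome P450 list, 2 were higher and 5 were lower. That list was drawn by gene symbol and also holds the cyclophilins *Cyp1* and *CG8336*, which are not P450 enzymes and were not called. Of 18 genes of the eye pigment pathway, 2 were higher and 2 were lower. Against the TME, 1 of 32 redox enzymes, 5 of 41 transferases, 1 of 27 members of the P450 list and 1 of 18 pigment genes were higher. In that order, 5, 5, 6 and 2 were lower.

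**Figure D5:**
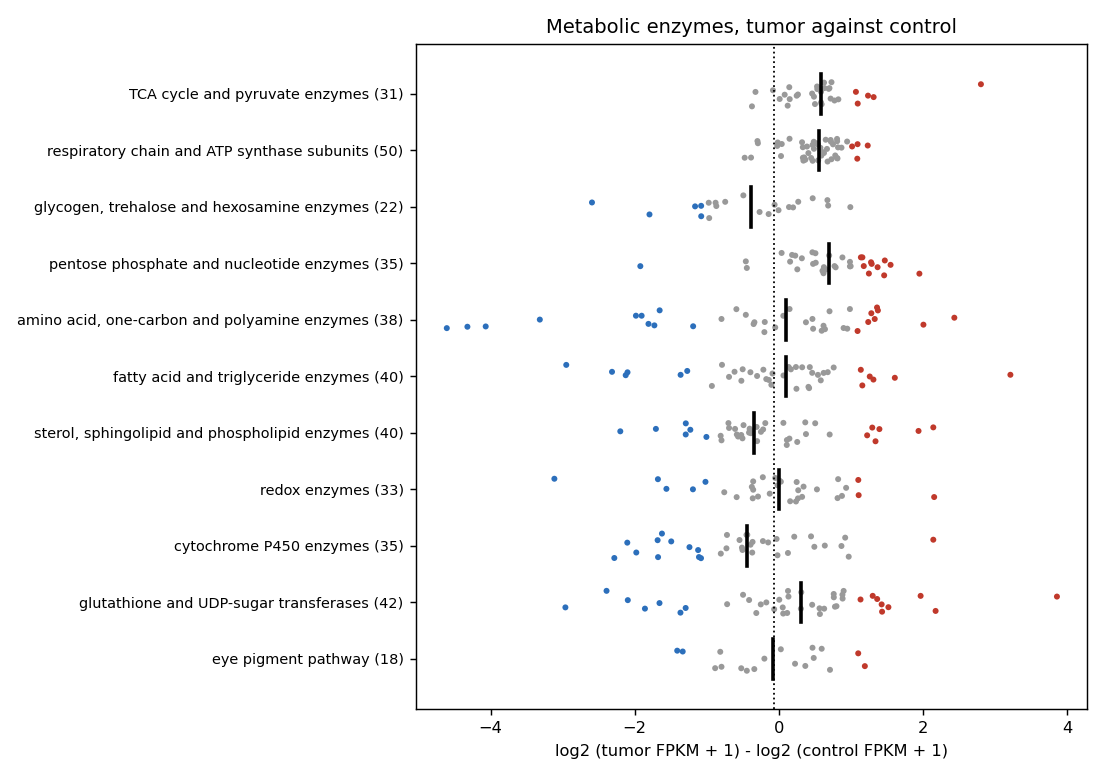
Difference in log2 (FPKM + 1), tumor minus control, for each tested member of the 11 metabolic lists (points, number in brackets), with the median of each list as a black bar and the median of all tested genes as a dotted line; red points are at 1 or more and blue points at -1 or less. The pentose phosphate, TCA cycle and respiratory chain lists lie mostly to the right, with medians of 0.70, 0.59 and 0.56.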

How the data were processed

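RNA from 3 pools of eye-antennal disc cells was measured, with 1 library per group. The authors extracted RNA (with Trizol per the labels, with Qiagen kits per the methods), made TruSeq libraries for a MiSeq, used the Tuxedo suite to map reads to genome release 5.2, and deposited FPKM values per gene. Tool versions, the annotation and any use of strand were not given in the sources used here. All 3 columns were used; 0 columns were left out.

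Gene types, current symbols and transcript lengths came from the Ensembl annotation of a later assembly, matched by identifier for 14927 genes, by symbol for 221 and by synonym for 295, and 160 were not matched; no coordinates were taken. Depth and the length offset were fitted on genes with 1 transcript of 400 to 4000 nt, and 79.8% (tumor), 77.5% (TME) and 79.0% (control) of low values were whole fragments within 0.1, where 20 percent would be by chance. Fragments per gene used the shortest transcript. Intervals are Clopper-Pearson.

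Genes were compared with a mean of at least 1 FPKM. Groups of genes are described by counts and by the median of log2 (FPKM + 1) differences, beside the same over all tested genes. The members, the 36 lists (29 by role and 7 of markers) and the rules were chosen with earlier results of these data known. Named genes are the 20 protein-coding genes in each direction with the interval bound furthest from 1, up to 5 called genes per list and direction, the 3 most abundant genes of each list not called, all marker genes, *Ras85D*, *scrib* and *w*. *y*, *Mmp1*, *spz3* and *spz5*, named in the report, were chosen after their values were seen. Alternatives varied the ratio, floor, pseudocount, scaling, filter, gene types, zeros and interval; the TME as the reference was added after the values were seen. The scripts were tested on simulated data. Python 3.11.15, numpy 2.4.6, pandas 2.3.3, scipy 1.17.1 and matplotlib were used.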

Additional observations from a re-analysis of the deposited data

Results flagged for a closer look

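A pair of non-coding genes had signal in tumor cells above the control although the comparisons of protein-coding genes do not use them. The long non-coding RNA *CG43144* was at 75.3 FPKM in tumor cells, 10.7 FPKM in the TME and 16.1 FPKM in control cells, 4.68-fold higher than in control (2.31 to 11.2). The pseudogene *CR33294* was at 11.8 FPKM in tumor cells, 1.21 FPKM in the TME and 1.89 FPKM in control cells, 6.24-fold higher (2.60 to 17.9). They are the 2 of 175 tested non-coding genes over 400 nt whose interval lay wholly above 2-fold; of the 175, 10 were higher in tumor and 31 were lower. Reads of a gene that overlaps either of them cannot be told apart from its own without strand.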

How the results depend on the processing

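Against 941 genes higher in tumor than control, a ratio of 1.5 gave 1831 and a ratio of 3 gave 353, and with the TME library as the reference 434 were higher. Against 1461 genes lower, no floor or a floor of 1 FPKM gave 2196 each, and the TME reference gave 515. Of the 29 lists by role, 15 had a median above that of all tested genes, and 9 had with no filter on low values or against the TME. All other settings run kept these 3 counts within 1.5 times. The counts of single lists, 72 in all, moved further more often: by over 1.5 times for 30 at a ratio of 3, 24 at a ratio of 1.5, 13 with no floor or a floor of 1 FPKM, 12 with a floor of 10 FPKM and 44 against the TME. The 3 scalings moved the tumor by -0.06 to 0.03 on the log2 scale, reversed no named gene that was called and turned the sign of 3 list medians near 0 (ETS and bZIP factors, matrix proteins and redox enzymes). The share of calls that were higher was 39.2% and lay between 25.0% (ratio of 3) and 46.5% (ratio of 1.5) over the settings run. No paired analysis was possible because each group has 1 library, and none could be left out. At 16.7 and 16.3 fragments for a 2000 nt transcript at 5 FPKM in tumor and control, the depth limits what can be said of low genes.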

Other observations

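The following RNAs known from the larval central nervous system were picked after their values were seen. The long non-coding RNA *CR43283* (*cherub*), known from neuroblast lineages, was at 1.09 FPKM in tumor cells, 23 FPKM in the TME and 662 FPKM in control cells, 610-fold lower in tumor (275 to 1411). The neuroblast factors *sna*, *ase* and *erm*, which are among the genes counted above, were at 1.79, 1.29 and 1.21 FPKM in tumor cells, 3.34, 1.82 and 1.30 FPKM in the TME and 36.6, 15.6 and 15.6 FPKM in control cells. The neuroblast factor *dpn*, which disc cells also express, was at 32.4 FPKM in tumor cells, 38.9 FPKM in the TME and 42.6 FPKM in control cells.

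The ecdysone-inducible gene *ImpE2*, also picked after its values were seen, was at 21.4 FPKM in tumor cells, 171 FPKM in the TME and 142 FPKM in control cells, 6.67-fold lower in tumor than in control (5.07 to 8.89). The dosage compensation RNAs *roX1* and *roX2*, picked in the same way, were at 158 and 46.1 FPKM in tumor cells, 175 and 88.6 FPKM in the TME and 525 and 192 FPKM in control cells; the sex of the larvae in each pool is not given in the sources used here.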
